A study of Homo sapiens with 12 samples.

Results

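Heparan sulfate and chondroitin sulfate are long, negatively charged sugar chains that are built in the Golgi on the serines of core proteins such as syndecans and glypicans. Both chains start from the same short linker, which begins with xylose. Adding N-acetylglucosamine next commits the chain to heparan sulfate, and adding N-acetylgalactosamine commits it to chondroitin sulfate. Sulfotransferases and epimerases then modify the growing chains, and the pattern of sulfate groups decides which growth factors, chemokines and matrix proteins they bind. Dermatan sulfate is chondroitin sulfate in which an epimerase has converted glucuronic acid to iduronic acid. CD44 is a cell surface receptor for hyaluronan, a related chain that carries no sulfate, and CD44 can itself carry sulfated chains.

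The genes described here are 48 enzymes and transporters of heparan, chondroitin and dermatan sulfate synthesis, out of 58381 genes in the count table. They were chosen by gene symbol as the enzymes of these pathways, with earlier results of these data known, and each symbol matched 1 gene of the table. The shares called among the members and the further lists, set beside all genes below, are therefore descriptions and no test of an excess. By step, 6 supply precursors, 6 build the linker, 5 extend heparan sulfate, 12 modify it, 3 edit or cut it after synthesis, 6 extend chondroitin sulfate and 10 modify chondroitin or dermatan sulfate. RNA was measured in 12 libraries of 2 triple negative breast cancer cell lines, Hs578T from a primary breast tumour and MDA-MB-231 from a metastatic site. Cells of all 4 groups carried a doxycycline-inducible Cas9. The CD44 KO cells had received guides to exons of CD44 and were sorted as CD29+/CD44-, whereas the CD44 WT cells had received the transfection reagent without guides and were sorted as CD29+/CD44+. Each KO is thus a sorted and expanded population and not a clone, and the cells were starved in low serum before RNA was taken. Each of the 4 groups holds 3 libraries, and since no label says that these came from separate cultures, p-values measure the spread between these libraries, which may be technical. The name of 1 MDA-MB-231 CD44 WT library stands in the labels of 2 replicates, so it is called the unnumbered library here and listed last in its group.

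The libraries held 10257586 to 19725543 counts. CD44 was read first as the check of the labels: its level was 507 ± 17.6 CPM (counts scaled to library size; SD, n = 3) in Hs578T CD44 WT and 27.3 ± 2.06 in CD44 KO, and 362 ± 1.70 in MDA-MB-231 CD44 WT and 34.2 ± 5.40 in CD44 KO. Of 14 cell type markers, the mesenchymal marker VIM and the epithelial keratins KRT8 and KRT18 were abundant in every library. The other epithelial markers were not: CDH1 had 60 counts over all 12 libraries. KRT5 had 70 counts over the WT group of Hs578T, 29 over its KO group and 0 in the other line. EPCAM had 2 counts over each Hs578T group, whereas the MDA-MB-231 groups held 622 (WT) and 667 (KO). The receptor gene ERBB2 had at least 650 counts in every library. VIM rose in CD44 KO of both lines (log2 fold changes 0.38 ± 0.08 and 0.43 ± 0.08, adjusted p = 0.00386 and 0.00253). PGR, the progesterone receptor, had 0 counts in all 12 libraries, whereas ESR1, the estrogen receptor, had 0 counts over a group only in MDA-MB-231 CD44 KO. The summed level of 5 markers of other cells (PTPRC, CD68, PECAM1, VWF and ACTA2) ranged from 1.67 to 2.19 FPKM in Hs578T CD44 WT, from 2.87 to 3.31 in Hs578T CD44 KO, from 0.939 to 1.49 in MDA-MB-231 CD44 WT and from 1.34 to 1.86 in MDA-MB-231 CD44 KO. FPKM are fragments per kilobase of exons, scaled to library size with TMM factors. PTPRC, the leukocyte gene for CD45, rose in Hs578T CD44 KO (log2 fold change 3.33 ± 0.39, standard error, adjusted p = 3.19e-05) from at most 0.0628 to at most 0.525 FPKM, and its part in the changes below was not tested.

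Of the 48 members, 42 passed the filter on low counts and were tested with edgeR. Unless DESeq2 is named, called and not called refer to edgeR, at 0.01 on p-values adjusted after Benjamini-Hochberg across the 15836 genes tested. In Hs578T, 7 members were called, 4 higher and 3 lower in CD44 KO, which is 16.7% of those tested, where 7.51% of all genes tested were called. In MDA-MB-231, 6 members were called, 2 higher and 4 lower, which is 14.3% of those tested against 4.62% of all genes. The median log2 fold change of the tested members lay near 0 in both lines, at 0.042 in Hs578T and 0.017 in MDA-MB-231, beside -0.0016 and -0.0096 over all genes tested. These medians were 0.084 and 0.018 over the 41 members with a fold in each line, with genes at 0 counts in 1 group set to their bounds. The member left out had 0 counts in both groups of the line. HS6ST1, a heparan sulfate 6-O-sulfotransferase, fell in both lines, and DSE, the epimerase that makes dermatan sulfate, rose in both. The other called members passed the test in 1 line each.

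**Figure D1:**
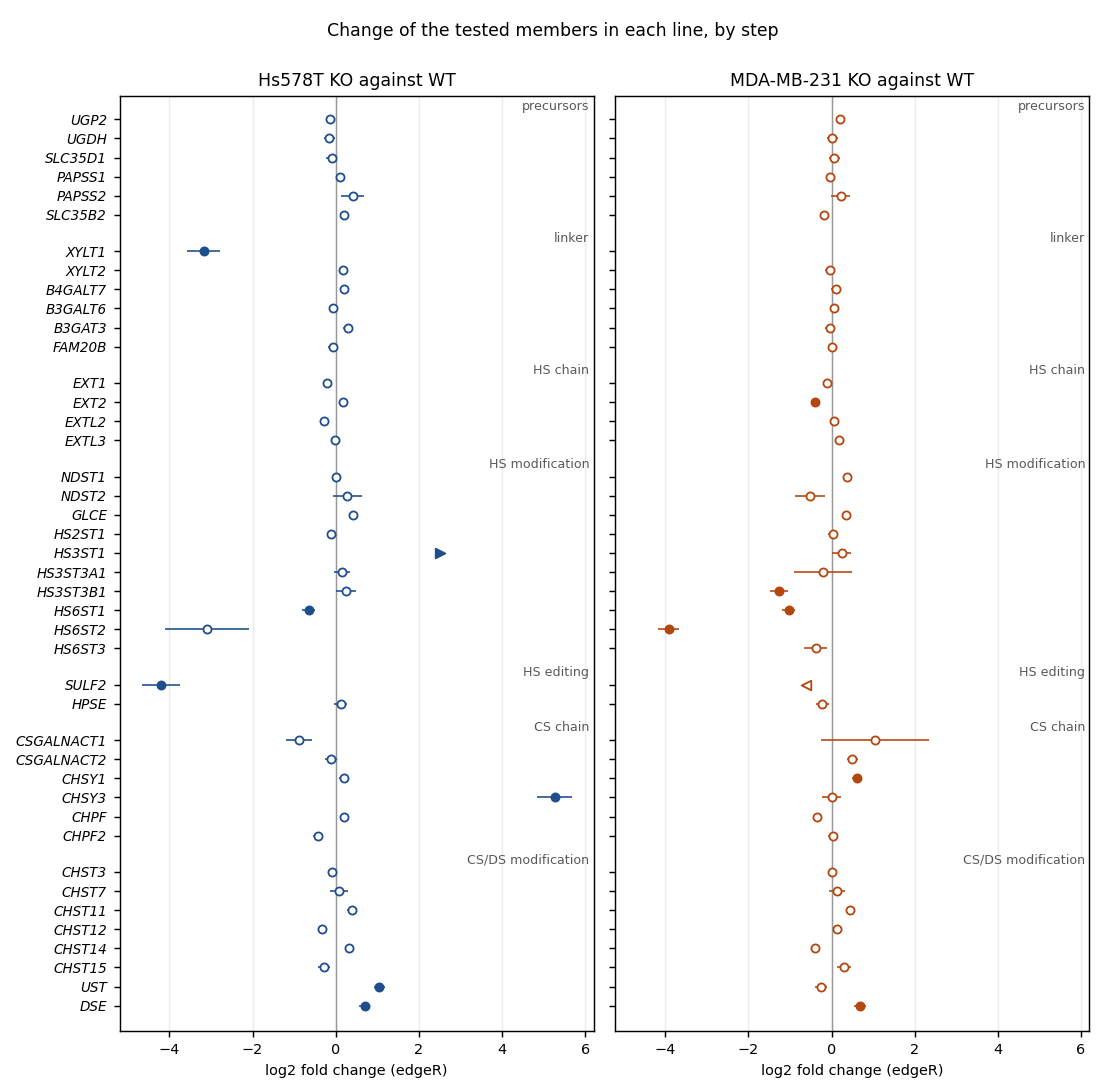
Log2 fold change of CD44 KO against CD44 WT for the 42 tested members in Hs578T (left) and MDA-MB-231 (right), ordered by step. Circles are edgeR estimates with bars of 1 standard error, triangles are lower bounds for genes at 0 counts in a group, filled symbols are called members, and no symbol is drawn where both groups are at or under 3 counts; the 7 called members on the left include both ends of the range, SULF2 and CHSY3 among them, and of the 6 on the right HS6ST2 lies farthest from 0.

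The promoters of 4 members are shown for the contrasts they offer: HS6ST1 and HS6ST2 encode isoenzymes of 1 step that both fell in MDA-MB-231, and XYLT1 and CHSY3 encode enzymes that start and extend chains and moved in opposite directions in Hs578T. Each sequence is the 250 bases before the RefSeq start on the gene's own strand in GRCh38.p14, and capitals mark the GC box GGGCGG on either strand.
HS6ST1 (chr2:128318869-128319118, minus strand): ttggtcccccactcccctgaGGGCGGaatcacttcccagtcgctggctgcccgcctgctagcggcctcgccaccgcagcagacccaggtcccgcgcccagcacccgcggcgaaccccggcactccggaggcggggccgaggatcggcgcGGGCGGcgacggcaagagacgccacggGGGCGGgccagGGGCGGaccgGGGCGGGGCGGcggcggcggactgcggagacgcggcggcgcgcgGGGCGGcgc
HS6ST2 (chrX:132961371-132961620, minus strand): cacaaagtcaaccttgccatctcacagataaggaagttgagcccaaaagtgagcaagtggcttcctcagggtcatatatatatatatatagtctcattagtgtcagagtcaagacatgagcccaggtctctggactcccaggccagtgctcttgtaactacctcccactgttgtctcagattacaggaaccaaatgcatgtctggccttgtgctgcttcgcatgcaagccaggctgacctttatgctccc
XYLT1 (chr16:17470961-17471210, minus strand): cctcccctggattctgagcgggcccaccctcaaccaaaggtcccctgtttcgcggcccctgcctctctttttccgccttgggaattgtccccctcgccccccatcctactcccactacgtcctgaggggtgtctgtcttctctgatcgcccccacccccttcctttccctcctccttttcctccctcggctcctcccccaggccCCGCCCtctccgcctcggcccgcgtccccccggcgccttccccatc
CHSY3 (chr5:129904215-129904464, plus strand): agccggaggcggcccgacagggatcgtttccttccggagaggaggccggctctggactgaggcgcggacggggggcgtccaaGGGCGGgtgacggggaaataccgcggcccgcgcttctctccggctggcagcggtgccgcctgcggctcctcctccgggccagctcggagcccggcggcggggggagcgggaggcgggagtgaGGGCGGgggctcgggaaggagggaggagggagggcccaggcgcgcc

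The GC box was found 7 times in the HS6ST1 window, 2 times in that of CHSY3, once in that of XYLT1 and 0 times in that of HS6ST2. Of all 35116 RefSeq windows of this length, 42.6% held it. CpG dinucleotides numbered 40 in the HS6ST1 window, 31 in that of CHSY3, 15 in that of XYLT1 and 1 in that of HS6ST2, against a median of 11 over all windows. The 2 isoenzymes that fell together in MDA-MB-231 thus have promoters of unlike base composition, with 80.4% G and C for HS6ST1 and 48% for HS6ST2. CCAAT (in 32% of all windows), TATAAA (10.7%), CACGTG (6.34%) and TGACTCA (4.2%), searched on both strands, were in none of the 4 windows, which says only that these letters are not there.

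None of the 6 precursor members was called in Hs578T or in MDA-MB-231, where 7.51% and 4.62% of all genes were called. With shares of this size, 0 calls among so few genes is no result about the step. In each line 1 of them had an unadjusted p under 0.05 in edgeR, and DESeq2 called 0 in each. SLC35B2, which carries the sulfate donor PAPS into the Golgi, was the most abundant of them. Its level in Hs578T was 56.3, 61.2 and 61.3 FPKM in CD44 WT and 71.6, 67.4 and 67.1 FPKM in CD44 KO, a log2 fold change of 0.21 ± 0.08 (adjusted p = 0.12). The MDA-MB-231 level was 47.4, 46.9 and 43.5 FPKM in CD44 WT and 37.1, 41.1 and 43.8 FPKM in CD44 KO (-0.18 ± 0.08, adjusted p = 0.225). The groups did not overlap in Hs578T and overlapped in MDA-MB-231. Log2 fold changes of UGP2, UGDH, SLC35D1, PAPSS1 and PAPSS2, which make or carry the activated sugars and PAPS, lay between -0.15 and 0.41 in Hs578T, and those of all 6 between -0.18 and 0.22 in MDA-MB-231.

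The linker step was marked by the fall of XYLT1, a xylosyltransferase that puts the first sugar on the core protein, in Hs578T. XYLT1 stood at 2.00, 1.26 and 0.746 FPKM in the Hs578T CD44 WT libraries and at 0.219, 0.106 and 0.124 FPKM in CD44 KO. The WT libraries varied among themselves, yet the lowest of them was above every KO library. The log2 fold change was -3.18 ± 0.39 (adjusted p = 0.000254). In MDA-MB-231 XYLT1 had 0 counts in all 6 libraries, where 3 counts over a group would have given 0.00774 FPKM in CD44 WT and 0.00668 in CD44 KO. Its isoenzyme XYLT2 made up most of the summed xylosyltransferase level in every group, with 91.1% in Hs578T CD44 WT and 99% in Hs578T CD44 KO as means of 3 libraries. XYLT2 itself was at 13.7 ± 1.2 FPKM in Hs578T CD44 WT and 15.5 ± 0.42 in CD44 KO (0.18 ± 0.10, adjusted p = 0.251). The summed level of both was 15 ± 1.26 FPKM in Hs578T CD44 WT and 15.6 ± 0.446 in CD44 KO, so the sum differed by less than the SD of the WT libraries.

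The other 5 linker genes were not called in either line, where 7.51% of all genes were called in Hs578T and 4.62% in MDA-MB-231. With shares of this size, the lack of calls among so few genes is no result about them. B3GAT3, which adds the glucuronic acid that ends the linker, was the most abundant of the step, at 16.3, 18.6 and 18.2 FPKM in Hs578T CD44 WT and 20.9, 22.5 and 21.1 FPKM in CD44 KO. The KO libraries were all above the WT libraries, with a log2 fold change of 0.28 ± 0.11 (adjusted p = 0.113). In MDA-MB-231 its groups overlapped (15.7 ± 2.6 and 15.2 ± 1.1 FPKM; -0.05 ± 0.11, adjusted p = 0.87). B4GALT7 and B3GALT6, which add the 2 galactoses, and FAM20B, which phosphorylates the xylose, had log2 fold changes between -0.07 and 0.20 in both lines.

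Of the heparan sulfate chain enzymes, EXT2 fell in MDA-MB-231. EXT1 and EXT2 form the polymerase that lengthens the chain. EXT2 was at 21.6, 24.5 and 24.3 FPKM in MDA-MB-231 CD44 WT and at 18.1, 17.8 and 17.5 FPKM in CD44 KO. The groups did not overlap, and the log2 fold change was -0.40 ± 0.08 (adjusted p = 0.00524). The 100 tested genes nearest to EXT2 on its chromosome had a median of -0.163 in the same comparison, and their part in this value was not tested. In Hs578T EXT2 was at 37.2, 41.8 and 39.7 FPKM in CD44 WT and at 42.5, 44.8 and 45.4 in CD44 KO (0.16 ± 0.08, adjusted p = 0.199). The change differed between the lines by 0.56 ± 0.11 (adjusted p = 0.00523). The call in MDA-MB-231 was lost in 7 of 12 fits that left out 1 library.

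EXT1, the gene of this step with the highest mean FPKM over all libraries, was not called. In Hs578T, where EXT2 was the more abundant, EXT1 was at 17.2, 18 and 16.9 FPKM in CD44 WT and 13.8, 15.7 and 15.3 in CD44 KO (-0.22 ± 0.09, adjusted p = 0.129). Levels in MDA-MB-231 were 48.6, 50.5 and 54.4 FPKM in CD44 WT and 52.5, 45.8 and 43.2 in CD44 KO (-0.12 ± 0.09, adjusted p = 0.469). Its groups were apart in Hs578T and overlapped in MDA-MB-231. EXTL3, which adds the first N-acetylglucosamine, and EXTL2, an exostosin-like enzyme, had log2 fold changes between -0.28 and 0.17. EXTL1 had 12 counts in all libraries together and was not tested.

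Heparan sulfate modification, the step with the most tested members, held 3 called of 10 tested in MDA-MB-231, all lower, which is 30% where 4.62% of all genes were called. The median log2 fold change of the step was -0.291 in MDA-MB-231, beside -0.0096 over all genes tested. Among the same 10 genes in Hs578T, 2 were called, 1 higher and 1 lower, which is 20% against 7.51% of all genes, and the median was 0.078, or 0.155 over the 9 members with a fold and with HS3ST1 at its bound.

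HS6ST1 fell in both lines. It was at 5.66, 4.92 and 4.48 FPKM in Hs578T CD44 WT and at 3.43, 2.84 and 3.33 FPKM in CD44 KO. In MDA-MB-231 it was at 6.57, 4.95 and 4.57 FPKM in CD44 WT and at 2.80, 2.35 and 2.74 FPKM in CD44 KO. Every KO library was below every WT library of its line, and in both lines the WT levels fell toward the KO level in the order given. The log2 fold change was -0.65 ± 0.15 in Hs578T (adjusted p = 0.00806) and -1.03 ± 0.15 in MDA-MB-231 (adjusted p = 0.000473), and the changes differed by 0.38 ± 0.21 (adjusted p = 0.301). The call in MDA-MB-231 held without any library in turn, whereas the call in Hs578T was lost in 8 of 12 such fits, with adjusted p up to 0.0531. Over its 100 neighbouring tested genes the median change on the log2 scale was -0.215 in the first line and 0 in the second.

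HS6ST2, the isoenzyme with 34.5% of the summed 6-O-sulfotransferase level in MDA-MB-231 CD44 WT, almost disappeared from that line. It was at 3.27, 3.03 and 3.28 FPKM in CD44 WT and at 0.271, 0.222 and 0.118 FPKM in CD44 KO, from 562 and 43 counts over the groups. The groups were far apart, with a log2 fold change of -3.92 ± 0.26 (adjusted p = 2.37e-07). In Hs578T it was near its lower limit of detection, with 11 counts over the CD44 WT group and 1 over the CD44 KO group. Their ratio was 11.6-fold lower in CD44 KO with an exact 95% counting interval from 1.68 to 498, and the gene was not called (adjusted p = 0.0283). HS6ST3 had 0 counts in Hs578T and was at 0.461, 0.758 and 0.982 FPKM in MDA-MB-231 CD44 WT and 0.510, 0.584 and 0.595 in CD44 KO (-0.38 ± 0.28, adjusted p = 0.459).

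Summed over the 3 isoenzymes, the 6-O-sulfotransferase level was 9.29 ± 0.878 FPKM in MDA-MB-231 CD44 WT and 3.40 ± 0.219 in CD44 KO. In Hs578T the sum was 5.08 ± 0.602 FPKM in CD44 WT and 3.21 ± 0.319 in CD44 KO. The WT groups of the lines stood apart and the KO groups overlapped, with 2.84 to 3.44 FPKM in Hs578T and 3.16 to 3.59 in MDA-MB-231. HS6ST1 then made up 77.4% of the sum in MDA-MB-231 CD44 KO, from 57.4% in CD44 WT.

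**Figure D2:**
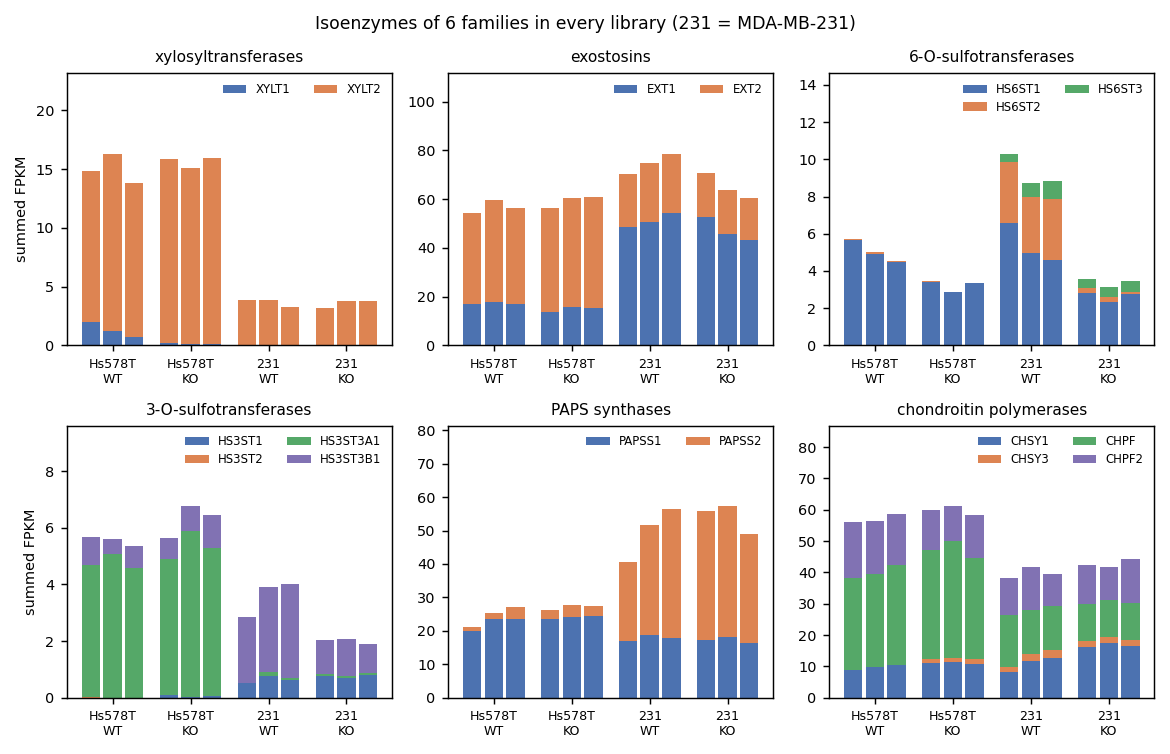
Summed FPKM of the members of 6 families, 1 stacked bar for each library, in the order Hs578T CD44 WT, Hs578T CD44 KO, MDA-MB-231 CD44 WT and MDA-MB-231 CD44 KO (231 in the labels). Not all members are isoenzymes: EXT1 and EXT2 are partners in 1 polymerase, and CHPF and CHPF2 are polymerizing factors. The 6-O-sulfotransferase bars of MDA-MB-231 drop from 8.74 or more to 3.59 or less FPKM. The leading isoenzyme differs between the lines for the 3-O-sulfotransferases and the PAPS synthases, as does the more abundant partner of the exostosin pair.

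The 3-O-sulfotransferases add a rare sulfate group, for example in the site that binds antithrombin, and their members went separate ways. HS3ST3B1 fell in MDA-MB-231, from 2.30, 2.99 and 3.30 FPKM in CD44 WT to 1.22, 1.32 and 1.01 FPKM in CD44 KO. The groups did not overlap (log2 fold change -1.26 ± 0.22, adjusted p = 0.0015). In Hs578T the groups overlapped, with 0.995, 0.536 and 0.788 FPKM in CD44 WT and 0.747, 0.873 and 1.16 in CD44 KO (0.24 ± 0.24, adjusted p = 0.569). The changes differed between the lines by 1.51 ± 0.32 (adjusted p = 0.00787).

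HS3ST1 was called as higher in Hs578T CD44 KO at a very low level. It had 0 counts in every CD44 WT library, where 3 counts over the group would have given 0.00957 FPKM, and 9, 4 and 5 counts in CD44 KO, or 0.0884, 0.0302 and 0.0522 FPKM. Against that floor it was at least 5.70-fold higher in CD44 KO (adjusted p = 0.00296), and the call was lost without CD44 WT replicate 1 or 2 or CD44 KO replicate 1, with an adjusted p of up to 0.0149. In MDA-MB-231 its groups overlapped (0.535, 0.755 and 0.611 FPKM in CD44 WT, 0.768, 0.681 and 0.810 in CD44 KO, 0.24 ± 0.23, adjusted p = 0.584). HS3ST3A1, the main 3-O-sulfotransferase of Hs578T, was at 4.76 ± 0.27 FPKM in CD44 WT and 5.29 ± 0.54 in CD44 KO (0.16 ± 0.19, adjusted p = 0.657). HS3ST2 had 1 count in all libraries together and was not tested.

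The genes of N-sulfation, epimerization and 2-O-sulfation were not called by edgeR, whereas DESeq2 called NDST1 in MDA-MB-231 and GLCE in Hs578T. NDST1, which starts the modification by swapping N-acetyl for N-sulfate groups and was the most abundant gene of the step, was at 12.9, 13.3 and 13.2 FPKM in Hs578T CD44 WT and 13.9, 12.4 and 13 in CD44 KO, and these groups overlapped. The MDA-MB-231 level was 13.4, 17.1 and 15.8 FPKM in CD44 WT and 20.9, 18.2 and 20.4 in CD44 KO, with the KO libraries all higher (0.36 ± 0.09, adjusted p = 0.0242 in edgeR and 0.00534 in DESeq2). GLCE, the C5-epimerase, missed the threshold in Hs578T with a log2 fold change of 0.42 ± 0.10 (adjusted p = 0.0107 in edgeR and 0.0021 in DESeq2), and was at 0.35 ± 0.10 in MDA-MB-231 (adjusted p = 0.039). It was singled out after its values were seen. HS2ST1 and NDST2 were called by neither tool. NDST2 shares 82.9% of its exonic bases with another gene on its strand, so its counts understate it. NDST3 had 20 counts in all, 15 of them in MDA-MB-231 CD44 KO, and was not tested.

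Of the editing enzymes, SULF2 fell in Hs578T. SULF1 and SULF2 are secreted sulfatases that take 6-O-sulfate off finished chains, thus acting against the 6-O-sulfotransferases. SULF2 was at 1.23, 1.56 and 0.547 FPKM in Hs578T CD44 WT and at 0.0362, 0.0926 and 0.0384 FPKM in CD44 KO. All KO libraries were below all WT libraries by a wide margin (log2 fold change -4.21 ± 0.46, adjusted p = 4.34e-05), and the call held without any library in turn. In MDA-MB-231 SULF2 had 4 counts over the CD44 WT group and 0 over the CD44 KO group, at least 1.54-fold lower against the floor (adjusted p = 0.248). SULF1 had 22 counts in all and was not tested: 20 of them lay in MDA-MB-231 CD44 WT, and 0 in CD44 KO. HPSE, the heparanase that cuts the chains, was at 2.70, 3.07 and 3.24 FPKM in Hs578T CD44 WT and 2.92, 3.08 and 3.76 in CD44 KO. Levels in MDA-MB-231 were 2.81, 2.32 and 2.81 FPKM in CD44 WT and 2.53, 2.46 and 1.76 in CD44 KO. Its groups overlapped in both lines (0.11 ± 0.16, adjusted p = 0.7, and -0.22 ± 0.16, adjusted p = 0.445).

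The chondroitin sulfate chain was marked by the appearance of CHSY3 in Hs578T CD44 KO. CHSY1 and CHSY3 are chondroitin synthases, which work with the polymerizing factors CHPF and CHPF2. CHSY3 had 0, 3 and 2 counts in Hs578T CD44 WT and 63, 93 and 63 counts in CD44 KO, or 0, 0.0627 and 0.0430 FPKM against 1.28, 1.46 and 1.36 FPKM. The KO libraries agree within a narrow range that lies far above the WT libraries (log2 fold change 5.27 ± 0.42, adjusted p = 8.18e-07). In MDA-MB-231 CHSY3 was at 1.44, 2.27 and 2.29 FPKM in CD44 WT and 1.98, 1.99 and 2.01 in CD44 KO, and the groups overlapped (0.00 ± 0.22, adjusted p = 1). The changes differed between the lines by 5.27 ± 0.50 (adjusted p = 8.88e-06). Even after its rise, CHSY3 was 2.29% of the summed level of the 4 synthases and polymerizing factors in Hs578T CD44 KO, beside 4.98% in MDA-MB-231 CD44 WT.

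CHSY1 rose in MDA-MB-231, from 8.33, 11.6 and 12.8 FPKM in CD44 WT to 16.1, 17.4 and 16.6 FPKM in CD44 KO. The groups did not overlap (log2 fold change 0.61 ± 0.13, adjusted p = 0.00582), although CD44 WT replicate 1 was well below the other WT libraries. The call was lost in 7 of 12 fits that left out 1 library, with an adjusted p of up to 0.0307. The 57 neighbouring tested genes near this end of the chromosome had a median of 0.223. In Hs578T CHSY1 was at 8.73, 9.76 and 10.5 FPKM in CD44 WT and 11, 11.3 and 10.9 in CD44 KO (0.20 ± 0.13, adjusted p = 0.351), and the changes did not pass the test of their difference (-0.42 ± 0.18, adjusted p = 0.16).

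CHPF had the highest mean FPKM of the step over all libraries, though CSGALNACT2 was above it in MDA-MB-231. CHPF was not called by edgeR. It was at 29.4, 29.8 and 31.8 FPKM in Hs578T CD44 WT and 34.8, 37.2 and 32.3 in CD44 KO (0.20 ± 0.09, adjusted p = 0.157). In MDA-MB-231 it was at 16.5, 14.2 and 14 FPKM in CD44 WT and 11.7, 11.7 and 11.5 in CD44 KO (-0.36 ± 0.09, adjusted p = 0.0216 in edgeR and 0.0089 in DESeq2). The groups did not overlap in either line, and the changes differed by 0.55 ± 0.13 (adjusted p = 0.0121 in edgeR and 0.00138 in DESeq2). CHPF2 and the starters of the chain, CSGALNACT1 and CSGALNACT2, were not called by edgeR, and of these DESeq2 called CSGALNACT2 in MDA-MB-231 (adjusted p = 0.00821). In this order, they had log2 fold changes of -0.43 ± 0.12, -0.88 ± 0.31 and -0.11 ± 0.14 in Hs578T and 0.04 ± 0.12, 1.05 ± 1.30 and 0.50 ± 0.13 in MDA-MB-231.

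Chondroitin and dermatan sulfate modification held 8 tested members, of which 2 rose in Hs578T CD44 KO (25% against 7.51% of all genes) and 1 in MDA-MB-231 CD44 KO (12.5% against 4.62%). DSE rose in both lines. It was at 1.72, 2.01 and 2.37 FPKM in Hs578T CD44 WT and at 3.25, 3.30 and 3.33 FPKM in CD44 KO. The MDA-MB-231 level was 0.679, 0.951 and 0.836 FPKM in CD44 WT and 1.47, 1.18 and 1.32 FPKM in CD44 KO. No KO library overlapped the WT libraries of its line, and in Hs578T the WT levels rose toward the KO level in the order given. The log2 fold change was 0.70 ± 0.13 in Hs578T (adjusted p = 0.00214) and 0.68 ± 0.14 in MDA-MB-231 (adjusted p = 0.00675), with a difference of 0.02 ± 0.19 between the lines (adjusted p = 1). The calls were lost in 4 of 12 fits without a library in Hs578T and in 9 of 12 in MDA-MB-231, with adjusted p up to 0.0163 and 0.0317. DSEL, the other dermatan epimerase, had 0 counts in all libraries, where 3 counts over a group would have given at most 0.00894 FPKM.

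UST, which puts a 2-O-sulfate on the uronic acids of these chains, rose in Hs578T. It was at 2.69, 2.31 and 2.23 FPKM in CD44 WT and at 4.33, 5.57 and 5.08 FPKM in CD44 KO, without overlap (log2 fold change 1.05 ± 0.13, adjusted p = 5.86e-05). Levels in MDA-MB-231 were 2.33, 2.24 and 2.48 FPKM in CD44 WT and 2.01, 1.92 and 1.99 in CD44 KO, the opposite order, again without overlap (-0.26 ± 0.14, adjusted p = 0.285). The changes differed by 1.31 ± 0.19 (adjusted p = 0.000428), and both the call in Hs578T and that of the difference held without any library in turn.

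CHST14, the 4-O-sulfotransferase of dermatan sulfate, was called for the difference between the lines and in neither line alone. It was at 9.80, 9.99 and 11.2 FPKM in Hs578T CD44 WT and at 13.3, 13.7 and 11.8 FPKM in CD44 KO (0.33 ± 0.10, adjusted p = 0.0358). In MDA-MB-231 it was at 9.52, 8.94 and 8.35 FPKM in CD44 WT and at 6.87, 6.6 and 6.96 FPKM in CD44 KO (-0.39 ± 0.10, adjusted p = 0.0217). The KO libraries lay above the WT libraries in Hs578T and below them in MDA-MB-231, and the changes differed by 0.72 ± 0.14 (adjusted p = 0.0043). CHST11, the main chondroitin 4-O-sulfotransferase of MDA-MB-231, had the highest mean FPKM of the step over all libraries, though not in Hs578T. CHST11 was at 2.75, 3.42 and 3.96 FPKM in Hs578T CD44 WT and 4.70, 4.17 and 4.30 in CD44 KO (0.38 ± 0.12, adjusted p = 0.0426). The MDA-MB-231 level was 15.5, 17.1 and 17.7 FPKM in CD44 WT and 22.3, 23.1 and 23.1 in CD44 KO (0.45 ± 0.11, adjusted p = 0.014 in edgeR and 0.00123 in DESeq2). The KO libraries were the higher ones in both lines, and edgeR called neither. CHST12, another chondroitin 4-O-sulfotransferase, was 49.1% of that family's summed level in Hs578T CD44 WT and 37.4% in CD44 KO. This share depends on the exonic lengths, 16143 nt for CHST12 and 6492 nt for CHST11. By counts over Hs578T CD44 WT, CHST12 had 2066 and CHST11 had 831. CHST12 was not called in Hs578T, with groups that did not overlap (-0.34 ± 0.10, adjusted p = 0.0316), nor in MDA-MB-231 (0.13 ± 0.10, adjusted p = 0.512). CHST3, CHST7 and CHST15, which sulfate chondroitin at other positions or in other contexts, had log2 fold changes between -0.28 and 0.30. CHST13 had 10 counts in all and was not tested.

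**Figure D3:**
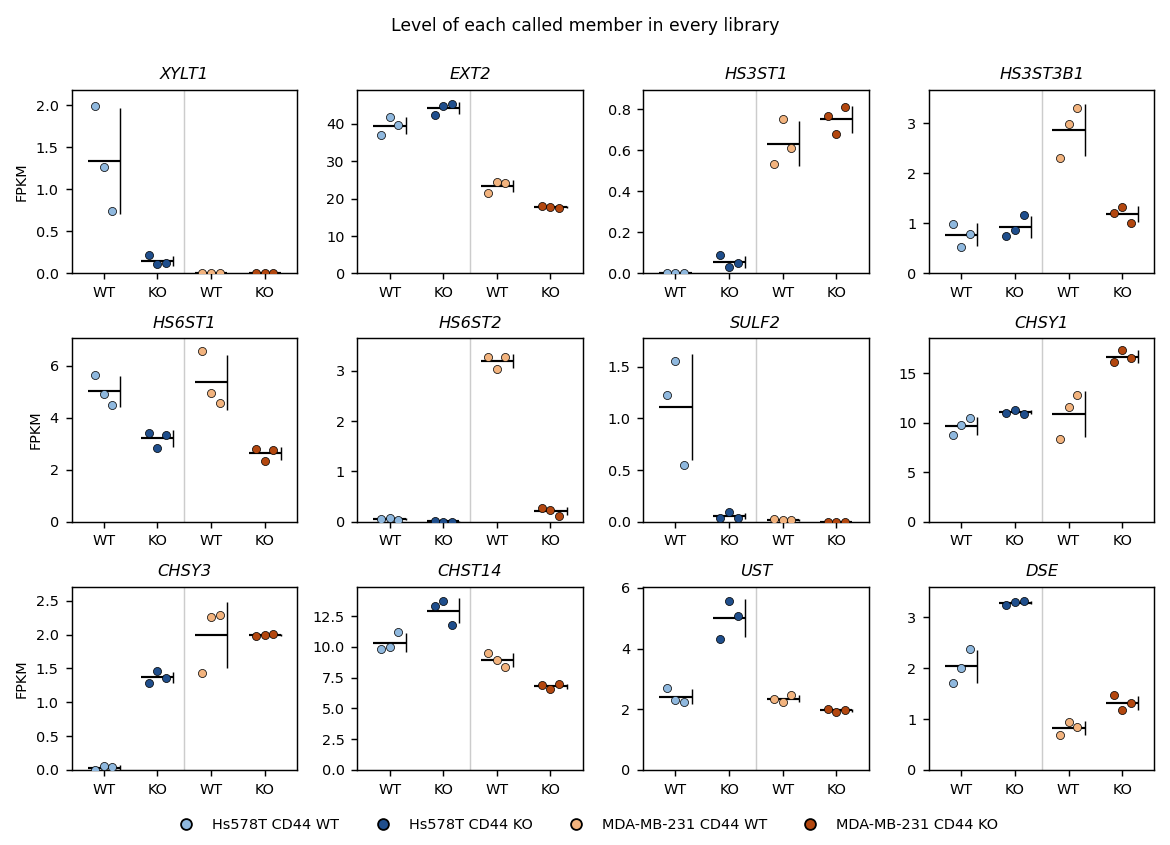
FPKM of the 12 members called in a line or for the difference between the lines, with 1 point for each library, a horizontal line at the mean and a vertical bar of 1 SD (n = 3). HS6ST1 is lower and DSE is higher in the CD44 KO libraries of both lines, whereas CHSY3, UST, XYLT1 and SULF2 separate CD44 KO from CD44 WT mainly in Hs578T and HS6ST2 in MDA-MB-231.

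Whether the changes differed between the lines was tested as the difference of the log2 fold changes. As each line has 1 KO population, a difference of line and one of population cannot be told apart. It was called for 6 of the 42 tested members, 14.3%, where 4.12% of all genes were called. These were EXT2, HS3ST1, HS3ST3B1, CHSY3, CHST14 and UST, each with the higher value in Hs578T. DESeq2 called 7, these and CHPF. For XYLT1 and SULF2, which fell strongly in Hs578T, the other line had 0 to 4 counts in a group and the difference could not be resolved (adjusted p = 1 and 0.81). For HS6ST2, with 12 counts in Hs578T, it was 0.82 ± 1.43 (adjusted p = 0.952). The calls for CHSY3 and UST held without any library in turn. Those for EXT2 and HS3ST1 were lost in 10 of 12 such fits, for HS3ST3B1 in 9 and for CHST14 in 7.

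The starting levels of the lines differed for most members. Between the CD44 WT groups, 30 of 42 tested members were called, 20 higher in Hs578T and 10 lower, which is 71.4% against 61.5% of all genes tested. Several families used another isoenzyme in each line. Of the PAPS synthases, PAPSS2 was 63.5% of the sum in MDA-MB-231 CD44 WT and 9.11% in Hs578T CD44 WT. PAPSS2 was at 1.27, 2.01 and 3.67 FPKM in Hs578T and at 23.6, 32.9 and 38.6 FPKM in MDA-MB-231, with no overlap (log2 fold change of Hs578T against MDA-MB-231 -3.79 ± 0.27, adjusted p = 5.27e-09).

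Of the 3-O-sulfotransferases, HS3ST3A1 was 85.9% of the sum in Hs578T CD44 WT and HS3ST3B1 was 80% in MDA-MB-231 CD44 WT. HS3ST3A1 was at 4.64, 5.07 and 4.57 FPKM in Hs578T CD44 WT and 0, 0.154 and 0.102 in MDA-MB-231 CD44 WT (5.73 ± 0.34, adjusted p = 5.48e-10). HS3ST1, with 0 counts in Hs578T CD44 WT, was at least 66.5-fold lower there than in MDA-MB-231 (adjusted p = 2.18e-08). HS6ST3 was at least 73-fold lower (adjusted p = 3.29e-07). HS6ST2 and CHSY3 were lower in Hs578T by the fitted log2 fold changes -5.75 ± 0.32 and -5.81 ± 0.41 (adjusted p = 2.92e-10 and 3.87e-09). HS6ST1 was alike in level, with overlapping libraries (-0.09 ± 0.15, adjusted p = 0.581).

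In the other direction, XYLT1 was at least 178-fold higher in Hs578T CD44 WT than in MDA-MB-231 (adjusted p = 5.18e-07). XYLT2 was at 12.9, 15 and 13.1 FPKM in Hs578T and 3.90, 3.82 and 3.29 FPKM in MDA-MB-231 (1.89 ± 0.10, adjusted p = 3.25e-10). CSGALNACT1 was at 3.77, 2.73 and 1.52 FPKM in Hs578T and had 4 counts over the MDA-MB-231 CD44 WT group (7.16 ± 0.61, adjusted p = 3.79e-08). SULF2 likewise had 4 counts over that group (5.91 ± 0.59, adjusted p = 6.58e-07). The polymerase pair was also uneven: EXT1 was 68.6% of the sum of EXT1 and EXT2 in MDA-MB-231 CD44 WT and 30.5% in Hs578T CD44 WT. The 5 largest called differences in each direction (XYLT1, CSGALNACT1, SULF2, HS3ST3A1, XYLT2 and HS6ST3, HS3ST1, CHSY3, HS6ST2, PAPSS2) kept their calls in every alternative fit, the omission of each library included.

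**Figure D4:**
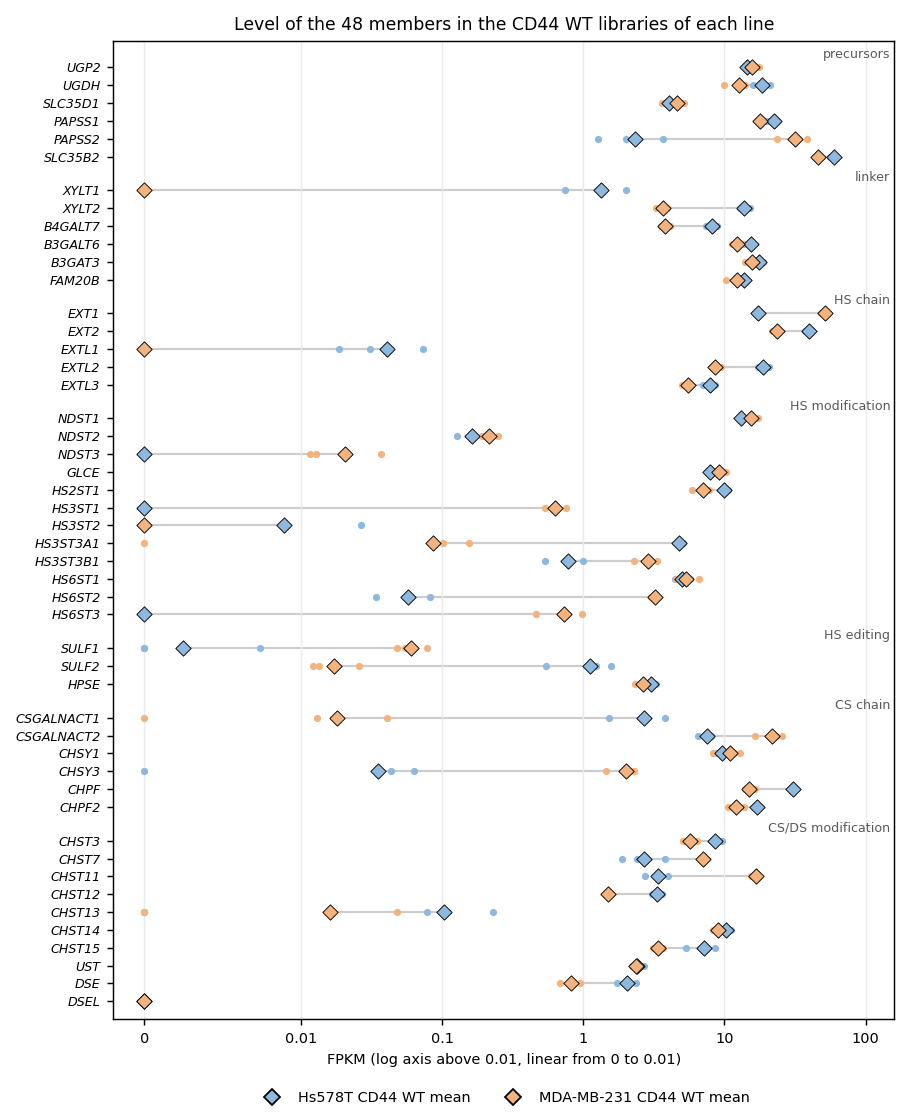
FPKM of the 48 members in the CD44 WT libraries of Hs578T (blue) and MDA-MB-231 (orange), with diamonds at the group means and small points for the 3 libraries of each group, on an axis that is logarithmic above 0.01. The pairs lie close for the precursor genes except PAPSS2 and for genes of other steps such as FAM20B, NDST1, HS6ST1 and UST. They lie far apart for XYLT1, HS3ST1, HS3ST3A1, HS6ST2, HS6ST3, SULF2, CSGALNACT1 and CHSY3.

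Genes around the pathway were read from further lists. Of 17 other synthesis and transport genes, 9 were tested and 0 were called in either line (edgeR; 2 had an unadjusted p under 0.05 in Hs578T and 1 in MDA-MB-231, and DESeq2 called 0 and 1). Of 9 keratan sulfate genes, 6 were tested and 0 were called in either line by edgeR or DESeq2 (1 in each line had an unadjusted p under 0.05). With 7.51% and 4.62% of all genes called by edgeR, 0 calls among so few genes is no result about either list. Of 29 core proteins that carry the chains, 21 were tested, of which 5 fell in Hs578T (23.8% called, against 7.51% of all genes), and 3 rose and 3 fell in MDA-MB-231 (28.6% against 4.62%). GPC4, a glypican that carries heparan sulfate, and SPOCK1, a proteoglycan of the testican family, fell in both lines. GPC4 was at 6.59, 3.57 and 1.91 FPKM in Hs578T CD44 WT and had 1 count over the CD44 KO group, a ratio of 840-fold with an exact 95% counting interval from 150 to 33218 (adjusted p = 6.58e-07). In MDA-MB-231 it went from 2.64, 2.19 and 2.28 to 0.0683, 0.128 and 0.0597 FPKM (log2 fold change -4.65 ± 0.49, adjusted p = 2.51e-05). GPC4 lies at 133300103 to 133415490 on chromosome X, near HS6ST2 at 132626016 to 132961395, so their falls may not be separate events. The 100 tested genes nearest to HS6ST2 had median log2 fold changes of -0.276 in Hs578T and -0.06 in MDA-MB-231. Whether the falls of GPC4 and HS6ST2 are linked was not tested. SPOCK1 fell by 2.12 ± 0.36 on the log2 scale in Hs578T (adjusted p = 0.000919) and by 1.75 ± 0.38 in MDA-MB-231 (adjusted p = 0.00774).

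Of 12 hyaluronan genes, 9 were tested, of which 1 rose and 2 fell in Hs578T (33.3% called, against 7.51% of all genes). In MDA-MB-231, 0 were called by edgeR or DESeq2 (1 with an unadjusted p under 0.05), where edgeR called 4.62% of all genes. HAS2, a hyaluronan synthase, rose in Hs578T from 0.629, 0.687 and 0.646 to 4.48, 4.19 and 5.68 FPKM (log2 fold change 2.86 ± 0.31, adjusted p = 1.73e-05). HAS2 draws on the same UDP-glucuronic acid as the chains described here, whose makers UGP2 and UGDH were not called. Of 15 lysosomal genes that break the chains down, 14 were tested, of which 1 fell in Hs578T and 2 rose in MDA-MB-231. These are 7.14% and 14.3% of the genes tested, where 7.51% and 4.62% of all genes were called. The share in Hs578T was thus near the background by edgeR calls only. DESeq2 called 4 of the 14 for Hs578T and 3 for MDA-MB-231. An unadjusted p under 0.05 in edgeR was found for 5 and 8 of them, so the share depended on the tool and threshold. SGSH, which removes N-sulfate from heparan sulfate, was at 2.39, 2.24 and 1.71 FPKM in Hs578T CD44 WT and 0.860, 1.03 and 0.915 in CD44 KO (-1.17 ± 0.14, adjusted p = 5.84e-05). GUSB, the lysosomal glucuronidase, was at 18.2, 15.4 and 13.1 FPKM in MDA-MB-231 CD44 WT and 24.6, 25.1 and 28.1 in CD44 KO (0.73 ± 0.11, adjusted p = 0.000461).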

How the data were processed

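Per the labels and the file headers, the authors aligned paired reads of stranded mRNA libraries to GRCh38 with HISAT2 2.1.0 and used featureCounts 1.6.2 to count fragments per gene on GENCODE version 28, with strand, both ends aligned and a mapping quality of at least 10. The deposited values are whole-number counts without normalization for 58381 genes and 12 libraries of 10257586 to 19725543 counts, which limits precision for weakly expressed genes.

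Genes over 1 CPM in at least 2 libraries and of at least 300 nt were tested (15836) with the quasi-likelihood test of edgeR 4.0.16 (R 4.3.3, TMM factors, 4 group means, all libraries), which was tested on simulated data. P-values were adjusted after Benjamini-Hochberg over all genes tested and called at 0.01. FPKM used the exonic length in the deposited table. Errors of log2 fold changes are standard errors, and those of levels are SD over 3 libraries. Intervals and floors (3 counts over a group) cover counting error only. Neighbours are up to 50 tested genes on each side. Named were all members called in a line or for the difference, the most abundant member of each step by mean FPKM, the 5 largest called differences between the WT groups in each direction, the members that missed the filter, and, of other lists, members called in both lines or else the largest called change of each line. Members and lists were chosen with earlier results of these data known. Promoters came from RefSeq, which held 43 members. The alternatives included DESeq2 1.42.0, other factors, filters and thresholds, each line fitted alone, blocks and each library left out.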

Additional observations from a re-analysis of the deposited data

Results flagged for a closer look

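For 6 members the change from CD44 WT to CD44 KO differed between the lines by the edgeR test (difference of log2 fold changes, Hs578T minus MDA-MB-231). The differences were 5.27 for CHSY3 (adjusted p = 8.88e-06), 1.31 for UST (adjusted p = 0.000428), 1.51 for HS3ST3B1 (adjusted p = 0.00787), 0.72 for CHST14 (adjusted p = 0.0043) and 0.56 for EXT2 (adjusted p = 0.00523). For HS3ST1 the fitted difference was 5.33 (adjusted p = 0.00841), but Hs578T CD44 WT had 0 counts, so this value depends on the prior count and is no bound. The calls for EXT2 and HS3ST1 were lost in 10 of 12 fits that left out 1 library, for HS3ST3B1 in 9 and for CHST14 in 7. With the replicate number as a block, only the calls for CHSY3 and UST remained. Each line has 1 KO population, so a difference of line and one of population cannot be told apart.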

How the results depend on the processing

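The 29 called results of the named members kept their sign in every alternative fit. CHSY3, UST, XYLT1 and SULF2 in Hs578T, HS6ST1 and HS6ST2 in MDA-MB-231 and the differences between the lines for CHSY3 and UST kept their calls in all fits. In Hs578T, 14 members in place of 7 passed an adjusted p threshold of 0.05. In MDA-MB-231, in place of 6, it was 12 at that threshold, 10 with DESeq2 (the 6 and CHPF, CHST11, CSGALNACT2 and NDST1), 10 without the filter on low counts, and 3 with each line fitted alone or when the change had to reach 1 on the log2 scale. Leaving out 1 library at a time gave 4 to 8 calls in Hs578T, 3 to 7 in MDA-MB-231, 2 to 7 for the difference and 27 to 35 between the WT groups. The count moved by over 1.5 times in Hs578T without CD44 WT replicate 1 or 2 (4 each). In MDA-MB-231 it was 3 without Hs578T CD44 WT replicate 2, Hs578T CD44 KO replicate 3 or MDA-MB-231 CD44 KO replicate 1, 2 or 3. For the difference it was 2 or 3 without any one of the Hs578T libraries, MDA-MB-231 CD44 WT replicate 3 or CD44 KO replicate 2 or 3. The WT libraries of some called members ran toward the KO level in the order listed. In Hs578T these were XYLT1, HS6ST1 and DSE, whereas UST ran away from it and SULF2, CHSY3 and HS3ST1 did neither. In MDA-MB-231 they were HS6ST1 and CHSY1, whereas HS3ST3B1 ran away from it and EXT2, HS6ST2 and DSE did neither. What set these orders was not tested.

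Replicate numbers were read as no pairing, since same-numbered libraries of a line had correlated deviations of -0.096 to 0.022 in Hs578T and 0.008 and 0.164 in MDA-MB-231. With the replicate number as a block, which leaves out the unnumbered library, 8 members were called in Hs578T, 3 in MDA-MB-231, 2 for the difference and 27 between the WT groups. The calls lost were DSE, EXT2 and HS3ST3B1 in MDA-MB-231, CHST14, EXT2, HS3ST1 and HS3ST3B1 for the difference, and B3GALT6, PAPSS1 and SLC35B2 between the WT groups. Libraries paired by consecutive label numbers had correlations of 0.031, 0.101 and 0.134 in Hs578T and the same values as above in MDA-MB-231, and not all exceeded 0.1. A block on these gave 8, 5, 4 and 28 calls and lost DSE and EXT2 in MDA-MB-231, EXT2, HS3ST1 and HS3ST3B1 for the difference, and B3GALT6 and PAPSS1 between the WT groups. Depth limits HS3ST1, HS6ST2 and HS6ST3 in Hs578T and SULF1, SULF2, XYLT1 and CSGALNACT1 in MDA-MB-231. The cause of the changed counts was not tested.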
